A study of Mus musculus with 6 samples.

Results

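The 9 genes described here encode cell surface receptors of the TNF receptor superfamily: Tnfrsf1a, Tnfrsf1b, Ltbr, Tnfrsf14, Tnfrsf9, Tnfrsf11a, Tnfrsf12a, Tnfrsf10b and Tnfrsf21. They were taken by name from 22180 mouse genes with a probe set that the platform's annotation gives to 1 gene symbol only, and each of the 9 had 1 such probe set. The study hybridised RNA of flow-sorted cells to 6 Mouse Gene 2.0 ST arrays, 3 for spleen and 3 for tumor, each from animals that had been given Th9 cells, a kind of helper T cell, 10 days before. The sort took inflammatory monocytes, positive for CD11b, without CD11c and high in Ly6C. Both groups carry the transfer, and no sample from an animal without it is among the 6. The labels' strain field reads Th9 and names no mouse strain, and the kind of tumor, the animals' age and the number of animals per sample are not stated in the sources used here. The replicates may therefore be technical, and a p-value here speaks only of the spread among these 6 samples. The question is which of these receptor genes differ between such cells of the tumor and those of the spleen.

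Receptors of this superfamily are membrane proteins whose extracellular part carries cysteine-rich repeats and binds trimeric ligands of the TNF superfamily. Some, among them the products of Tnfrsf1a, Tnfrsf10b and Tnfrsf21, have a death domain in the cytoplasm, through which adaptor proteins can recruit caspases. Others bind TRAF adaptors directly and activate NF-kB and MAP kinases. In monocytes and macrophages these receptors are known for their part in inflammatory activation, survival, cell death and, for the receptor RANK, the formation of osteoclasts.

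Levels are log2(intensity + 1), and differences are tumor minus spleen on that scale, where the added 1 shrinks the changes of dim genes. All 9 genes passed the filter on low values, and none had a group mean below 4.42, the 25th percentile of mean levels over all genes tested, below which a gene is called dim. The median log2(intensity + 1) of an array was 4.50 to 4.51 for numbers 1 and 2, whether spleen or tumor, but 4.73 (spleen) and 4.76 (tumor) for number 3. Between 4.91% and 6.85% of an array's distinct intensities recurred exactly on another array when both were numbered 1 or 2. The share was 0.327% to 0.424% between an array numbered 3 and one of the others, and 0.656% between spleen 3 and tumor 3. The arrays numbered 3 therefore stood apart in both groups, and 61.8% of all tested genes had their highest value on number 3 in both groups. Of the 9 receptor genes, 6 had their highest value there (Tnfrsf1b, Ltbr, Tnfrsf9, Tnfrsf11a, Tnfrsf10b and Tnfrsf21) and 1, Tnfrsf12a, its lowest. Among the genes behind the sort, Itgam (CD11b) was lower in tumor (10.04 and 9.19 in spleen and tumor), and Ly6c2 was higher (6.81 and 8.29). Itgax encodes the CD11c that the sort selected against. Its levels of 11.16 and 10.31 lay above those of Itgam in both groups. The median of mean levels over all genes tested was 5.74. Itgax RNA was thus not low in either group, and the surface protein is not part of these data. The small number of arrays limits the precision.

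On all 6 arrays the receptor genes differed by less than 2-fold between tumor and spleen, and Tnfrsf9 alone passed the test. Of the 9, 1 was called higher and 0 lower (limma, Benjamini-Hochberg adjusted p under 0.05 over 18458 genes tested), which is 11.1% of them beside 10.6% of all genes tested, 5.73% higher and 4.85% lower. That share is near the background and is no result about the family. The split depended on the scaling. It was 2 higher and 2 lower after quantile normalization, 2 higher and 1 lower after median centring and 3 higher and 1 lower after cyclic loess. Under each of these scalings Tnfrsf9 and Tnfrsf14 were called higher and Tnfrsf21 lower. Among these scalings, Ltbr was called lower only with quantile normalization and Tnfrsf11a higher only with cyclic loess. At an unadjusted p under 0.05 by limma the 9 numbered 4 (44.4%), beside 21.6% of all genes tested. None was called at 2-fold or more, as 3.74% (higher) and 1.59% (lower) of all genes were, the largest difference in size being the -0.74 of Tnfrsf10b, a size reached by 9.95% of all genes tested. The median difference of the 9 was 0.17, beside -0.05 over all genes tested. In a fit with the replicate number as a block, which takes out what the spleen and tumor arrays of 1 number share, 7 of the 9 were called, 4 higher (Tnfrsf1a, Tnfrsf9, Tnfrsf11a and Tnfrsf14) and 3 lower (Tnfrsf10b, Tnfrsf21 and Ltbr), beside 29% of all genes (11.7% higher and 17.3% lower). The 7 differences lay between 1.28-fold and 1.67-fold. For 8 of the 9 the 3 differences between arrays of equal number had 1 sign, which held for 52.9% of all genes. Tumor and spleen values did not overlap for 5 of the 9, and for 25.4% of all genes tested. In these bulk samples fewer cells of a type and less RNA per cell cannot be told apart.

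**Figure D1:**
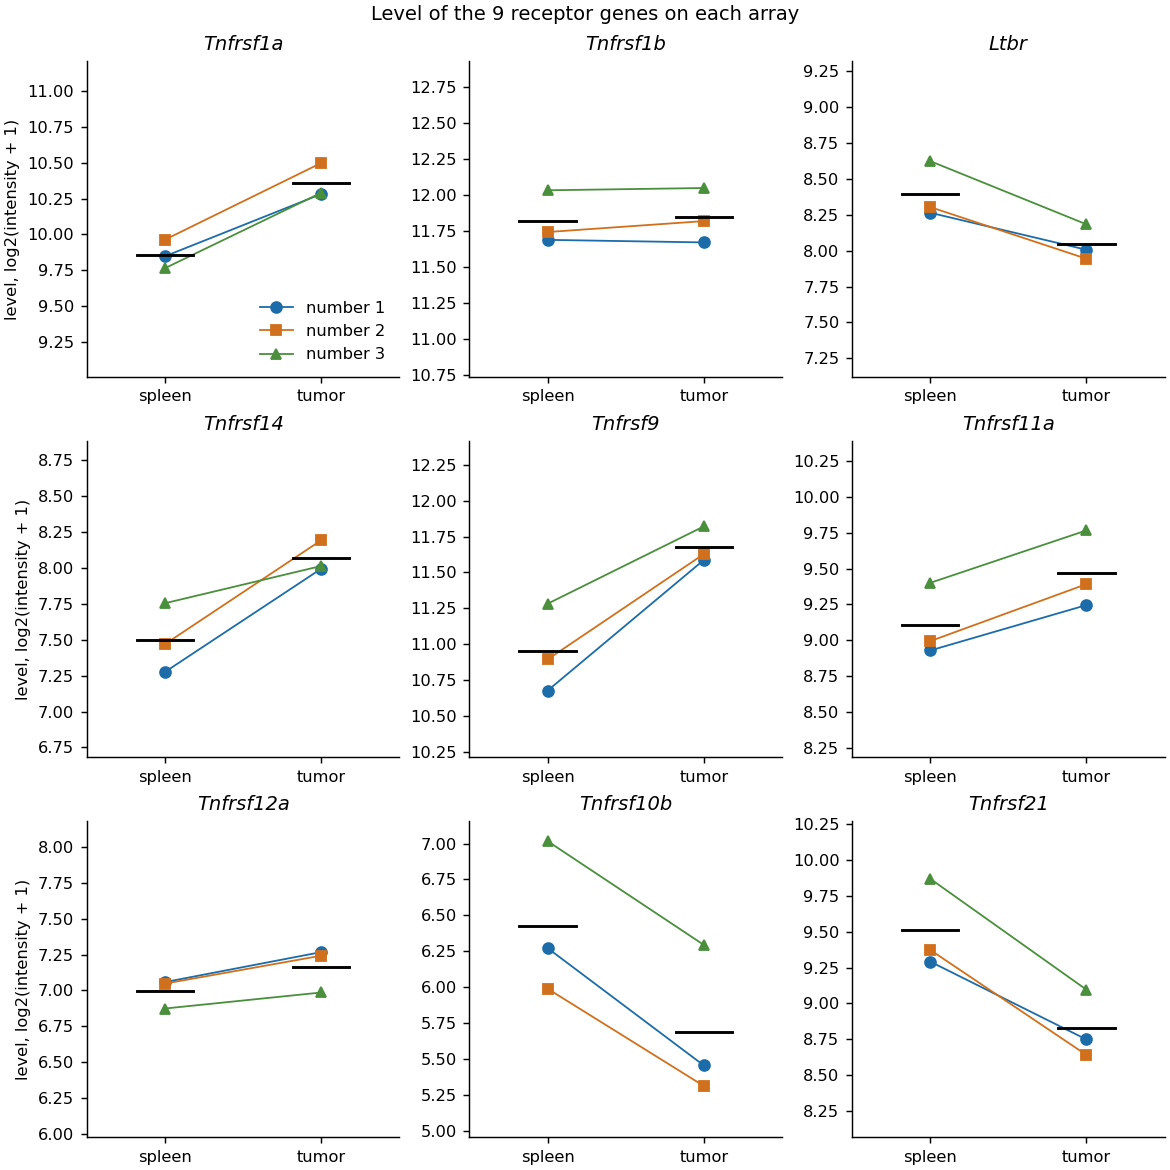
Level of each of the 9 receptor genes on each array, as log2(intensity + 1); lines join the spleen and tumor arrays of equal number, black bars are group means (n = 3), and every panel spans the same range. Tnfrsf1b is nearly level in all 3 lines, while the 3 lines of Tnfrsf10b run downward side by side although its groups overlap.

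The receptors of TNF itself came first. Tnfrsf1a encodes TNFR1, the broadly expressed receptor with a death domain that carries most inflammatory signalling by TNF. Its level was 9.85, 9.96 and 9.76 on spleen arrays 1 to 3 and 10.28, 10.50 and 10.29 on tumor arrays 1 to 3. All tumor values lay above all spleen values, and the difference was 0.50 ± 0.14 (SE, n = 3 per group; limma adjusted p = 0.0689, 95% interval 0.17 to 0.83). With the replicate block the adjusted p was 0.00531 (limma). Tnfrsf1b encodes TNFR2, which lacks a death domain and is found mainly on immune and endothelial cells. Its level was 11.69, 11.74 and 12.03 in spleen and 11.67, 11.82 and 12.05 in tumor. The groups overlapped almost wholly, and number 3 was highest in both. Its difference was 0.02 ± 0.17 (limma adjusted p = 0.98), with an interval from -0.36 to 0.41, or from -0.19 to 0.24 with the block, and its sign turned in some settings.

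The lymphotoxin and LIGHT receptors had differences of opposite sign. Ltbr encodes the lymphotoxin beta receptor, which drives the alternative NF-kB pathway and the formation of lymphoid tissue. Its level was 8.26, 8.30 and 8.62 in spleen and 8.01, 7.94 and 8.18 in tumor. The groups did not overlap, but the gap between the lowest spleen and the highest tumor array was small. The difference was -0.35 ± 0.16 (limma adjusted p = 0.253; 0.026 with the block). Tnfrsf14 encodes HVEM, a receptor of LIGHT that also binds the inhibitory receptor BTLA. Its level was 7.28, 7.47 and 7.76 in spleen and 7.996, 8.19 and 8.01 in tumor. Every tumor array was above every spleen array, yet the difference within number 3 (0.26) was smaller than those within numbers 1 and 2 (both 0.72). Tnfrsf14 stood at 0.57 ± 0.17 (limma adjusted p = 0.073, adjusted p = 0.0104 with the block, and 0.0391 among the arrays numbered 1 and 2). Without spleen 3 it was called (0.0294).

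Tnfrsf9 (probe set 17421981, Entrez gene 21942) rose in tumor. It encodes CD137, a costimulatory receptor best known from activated T cells and NK cells and also made by activated myeloid cells. Its level was 10.68, 10.89 and 11.28 in spleen and 11.59, 11.63 and 11.82 in tumor. The groups did not overlap, and the difference was 0.73 ± 0.19 or 1.66-fold (limma adjusted p = 0.0419; 0.0018 with the block; interval 0.30 to 1.15). Among the arrays numbered 1 and 2 it was 0.82 (adjusted p = 0.0229), and within the pair numbered 3 it was 0.54. The call was lost without spleen 1 or 2 or any 1 of the tumor arrays (adjusted p between 0.0888 and 0.157) and kept without spleen 3 (0.0118). Of 7 T cell markers tested by limma, 0 were called higher (0 at an unadjusted p under 0.05 as well) and 1, Cd3g, was lower in tumor (-1.36 ± 0.18), and their mean level lay between 4.98 and 5.30 on the spleen arrays and between 4.55 and 4.98 on the tumor arrays, with 1 of the 7 dim in both groups. NK cell markers had 0 of 5 called by limma and 0 at an unadjusted p under 0.05, with mean levels between 3.80 and 4.41 in spleen and between 4.02 and 4.56 in tumor and 3 of the 5 dim in both groups. The genes whose values followed Tnfrsf9 most closely over the 6 arrays were Pik3ap1 (Pearson r = 0.998), Slc28a2 (0.998) and Mtf1 (0.996), a description over arrays that share 2 groups and 3 numbers. Of these, Slc28a2, a nucleoside transporter, rose by 1.42 ± 0.27 (limma adjusted p = 0.0122), while Pik3ap1 (0.39 ± 0.15) and Mtf1 (0.39 ± 0.15) were not called (adjusted p = 0.171 and 0.17).

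Promoter sequence is shown for Tnfrsf9, the called gene, and for Tnfrsf1a and Tnfrsf1b, which share a ligand. The differences of Tnfrsf1a and Tnfrsf1b were 0.50 and 0.02, a contrast that was not tested. Also shown is Tnfrsf21, whose groups lay apart with tumor lower. RefSeq's table (GRCm38.p6) matched 8 of the 9 genes, all but Tnfrsf10b, with 9 starts, since Tnfrsf9 has 2. The 250 bases before each start were searched on both strands for an NF-kB motif, ISRE (GAAA, 2 bases of any kind, GAAA), GAS (TTCNNNGAA) and AP-1 (TGANTCA). Capitals mark every match, in the order of the gene's own strand. The Tnfrsf9 window (chr4:150927749-150927998, plus strand) is that of the second start, Tnfrsf1a is at chr6:125349473-125349722 (plus), Tnfrsf1b at chr4:145246871-145247120 (minus) and Tnfrsf21 at chr17:43016305-43016554 (plus).
Tnfrsf9: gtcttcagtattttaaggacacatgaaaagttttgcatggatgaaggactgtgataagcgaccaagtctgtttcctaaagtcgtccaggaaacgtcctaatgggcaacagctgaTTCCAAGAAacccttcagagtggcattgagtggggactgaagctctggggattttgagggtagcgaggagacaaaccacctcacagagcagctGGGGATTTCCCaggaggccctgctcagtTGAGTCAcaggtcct
Tnfrsf1a: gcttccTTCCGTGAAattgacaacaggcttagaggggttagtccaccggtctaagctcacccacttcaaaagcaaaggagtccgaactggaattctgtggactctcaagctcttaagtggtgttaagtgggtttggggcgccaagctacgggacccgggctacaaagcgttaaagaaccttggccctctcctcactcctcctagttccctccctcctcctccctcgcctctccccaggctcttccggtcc
Tnfrsf1b: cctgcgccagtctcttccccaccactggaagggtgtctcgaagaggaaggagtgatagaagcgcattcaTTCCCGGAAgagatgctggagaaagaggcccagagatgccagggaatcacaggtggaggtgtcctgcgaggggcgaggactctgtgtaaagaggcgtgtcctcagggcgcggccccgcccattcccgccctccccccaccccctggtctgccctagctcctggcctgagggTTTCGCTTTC
Tnfrsf21: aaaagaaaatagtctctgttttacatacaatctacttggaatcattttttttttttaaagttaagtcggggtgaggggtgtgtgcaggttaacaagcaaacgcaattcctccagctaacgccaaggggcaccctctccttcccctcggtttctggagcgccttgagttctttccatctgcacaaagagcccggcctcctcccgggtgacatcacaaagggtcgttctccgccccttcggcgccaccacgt
The Tnfrsf9 window held overlapping NF-kB matches, in the run GGGGATTTCCC that begins 43 bases before the start, with GAS (TTCCAAGAA) and AP-1 (TGAGTCA) matches besides, and the window of its other start held 0. The Tnfrsf1b window, of the gene with the smallest difference, ended in an ISRE match next to the start (TTTCGCTTTC, the motif on the other strand) and held a GAS match. Tnfrsf1a had 1 GAS match and Tnfrsf21 had 0. Of the windows not shown, that of Tnfrsf14 held an ISRE match and those of Ltbr, Tnfrsf11a and Tnfrsf12a none. An NF-kB match was in 7.25% of 32851 such windows of all genes, an ISRE match in 2.98%, a GAS match in 7.02% and an AP-1 match in 6.75%. These matches describe the letters only, and binding was not measured.

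Tnfrsf11a and Tnfrsf12a gave smaller positive differences. Tnfrsf11a encodes RANK, the receptor through which monocyte-lineage cells become osteoclasts. Its level was 8.93, 8.99 and 9.40 in spleen and 9.25, 9.39 and 9.77 in tumor. The groups overlapped, since spleen 3 lay above tumor 1 and 2, while within each number the tumor array was higher by 0.32 to 0.40. The difference was 0.36 ± 0.20 (limma adjusted p = 0.373; 0.0209 with the block), and without tumor 3 it was 0.21. Tnfrsf12a encodes Fn14, a small receptor for the cytokine TWEAK that is often induced in injured tissue. Its level was 7.06, 7.05 and 6.87 in spleen and 7.27, 7.24 and 6.99 in tumor. The groups overlapped, and the difference of 0.17 ± 0.15 was called in neither fit (limma adjusted p = 0.658, and 0.212 with the block; interval -0.17 to 0.52); it was 0.11 without spleen 3 and 0.26 without tumor 3.

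The other death domain receptors had the largest negative differences. Tnfrsf10b encodes a mouse receptor of the death ligand TRAIL. Its level was 6.27, 5.99 and 7.02 in spleen and 5.45, 5.31 and 6.29 in tumor. Number 3 was highest in both groups, so that tumor 3 lay above spleen 1 and 2, and within numbers 1 to 3 the differences were -0.82, -0.68 and -0.72. Their mean, -0.74 ± 0.33, was not called (limma adjusted p = 0.238), and with the block its SE was 0.09 (adjusted p = 0.000865). The difference was -0.44 without spleen 3 and -1.04, past 2-fold, without tumor 3, and was called in neither (limma adjusted p = 0.489 and 0.0638). Among the arrays numbered 1 and 2 the difference of Tnfrsf10b was -0.75 and was called (limma adjusted p = 0.0446). With array weights it was -0.59 and was called as well (limma adjusted p = 0.00651). Tnfrsf21 encodes DR6, which can bind the amyloid precursor protein and restrains T and B cell responses. Its level was 9.29, 9.37 and 9.87 in spleen and 8.75, 8.64 and 9.10 in tumor. The groups did not overlap, and the difference was -0.68 ± 0.20 (limma adjusted p = 0.076, adjusted p = 0.00161 with the block, and 0.0216 among the arrays numbered 1 and 2). Without tumor 3 it was called (0.0467).

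**Figure D2:**
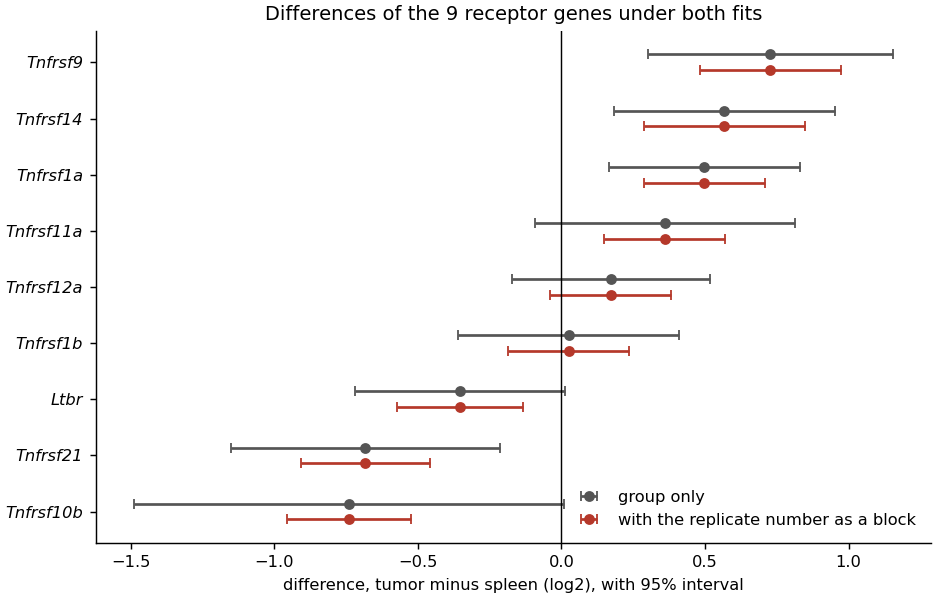
Difference of each of the 9 receptor genes, tumor minus spleen in log2 units, with its 95% interval from the fit with group only (grey) and from the fit with the replicate number as a block (red). Grey intervals leave 0 out for Tnfrsf9, Tnfrsf14, Tnfrsf1a and Tnfrsf21, and red ones also for Tnfrsf11a, Ltbr and Tnfrsf10b; intervals are not adjusted over genes.

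Among the ligand genes of the superfamily were larger differences than among the 9 receptor genes. Of 14 ligand genes tested 7 were called higher and 1 lower, 57.1% of them beside 10.6% of all genes tested. All 8 were called at 2-fold or more, as 3.74% (higher) and 1.59% (lower) of all genes were. The median difference of the 14 was 0.88. With the block 9 were called, 8 higher and 1 lower, beside 29% of all genes. Tnf, the ligand of TNFR1 and TNFR2, rose from 8.31, 8.49 and 8.82 in spleen to 11.15, 11.03 and 11.40 in tumor, by 2.65 ± 0.18 (limma adjusted p = 4.55e-05), beside 0.50 for Tnfrsf1a and 0.02 for Tnfrsf1b. Tnfsf10, which encodes TRAIL, rose from 5.19, 5.01 and 5.53 to 10.35, 10.30 and 10.97 (5.29 ± 0.22, 39.3-fold), beside -0.74 for the receptor gene Tnfrsf10b. Tnfsf9, the ligand of CD137, rose by 2.30 ± 0.16, so ligand and receptor gene were both called higher. Ltb, a subunit of the lymphotoxin that binds the lymphotoxin beta receptor, fell by 1.52 ± 0.16, with Ltbr at -0.35. Lta, which encodes lymphotoxin alpha, a ligand of both TNF receptors, was not called (0.29 ± 0.23, limma adjusted p = 0.604). Nor were Tnfsf14, which encodes LIGHT (-0.04 ± 0.24, adjusted p = 0.972), and Tnfsf11, which encodes RANKL and was dim in both groups (-0.02 ± 0.14, adjusted p = 0.981). Tnfsf12, the TWEAK gene, shares its probe set with neighbouring genes and is not analysed here. The difference between a ligand's and its receptor's change was not tested.

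**Figure D3:**
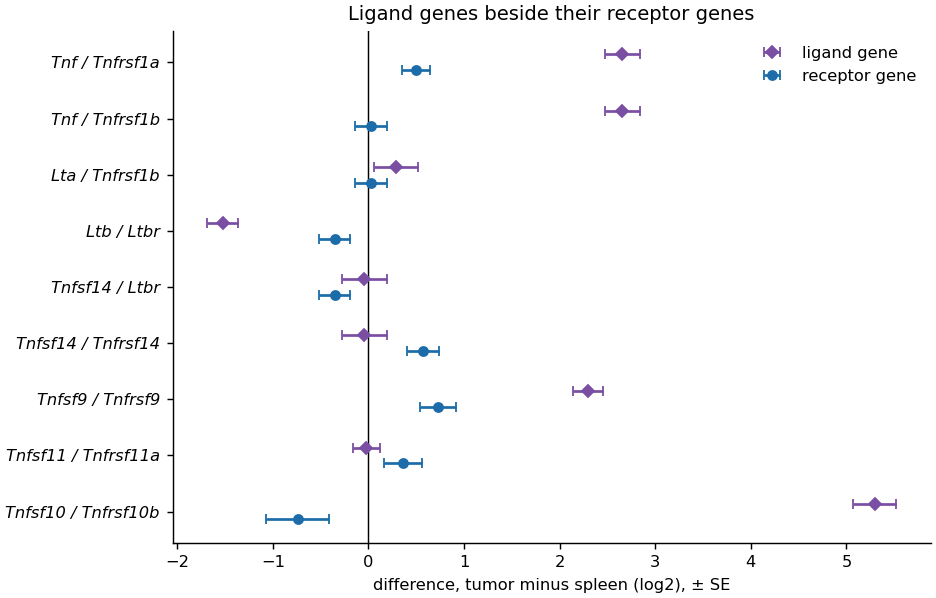
Difference of each ligand gene (diamonds) beside that of a receptor gene it pairs with (circles), tumor minus spleen in log2 units, with the SE of the fit with group only (n = 3 per group). The ligands Tnfsf10, Tnf and Tnfsf9 lie between 2.30 and 5.29 while the receptor genes lie between -0.74 and 0.73.

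Among the 19 other receptors of the superfamily 3 were called higher and 1 lower (21.1%, beside 10.6% of all genes tested), with a median difference of 0.05. Cd40, the receptor through which helper T cells activate antigen-presenting cells, rose from 8.01, 8.10 and 8.60 to 10.91, 11.07 and 11.19, by 2.82 ± 0.19 (limma adjusted p = 4.32e-05), and was the only one at 2-fold or more. The smaller calls, named after their values were seen, were the death receptor gene Fas (0.87 ± 0.14, adjusted p = 0.00514), Tnfrsf8, or CD30 (0.70 ± 0.16, adjusted p = 0.0258), and Tnfrsf4, or OX40, which fell by 0.88 ± 0.17 (adjusted p = 0.0116). Leaving out spleen 2, spleen 3 or any 1 tumor array ended the call of Tnfrsf8 (highest adjusted p 0.114), and leaving out tumor 1 or spleen 2 that of Tnfrsf4 (highest 0.0664). Among the arrays numbered 1 and 2 Tnfrsf8 was not called either (0.0595). With the block 8 of the 19 were called, 5 higher and 3 lower, beside 29% of all genes (11.7% higher and 17.3% lower). Further ligand genes that rose were Tnfsf15 (3.20 ± 0.16), which encodes TL1A, Tnfsf4 (2.40 ± 0.26), the OX40 ligand, Tnfsf8 (2.20 ± 0.35), the CD30 ligand, and Cd70 (1.19 ± 0.19), the CD27 ligand, dim in spleen.

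In the list of adaptor and signalling genes, 14 of 32 tested were higher and 2 lower (50%, beside 10.6% of all genes tested). Their median difference was 0.54. With the block 20 were higher and 2 lower, beside 29% of all genes called. The largest rises were those of Mlkl, the pore-forming effector of necroptosis (2.52 ± 0.17), Cflar, which encodes the caspase-8 inhibitor c-FLIP (1.89 ± 0.21), Traf4, a TRAF family adaptor (1.49 ± 0.17), Birc2, which encodes the ubiquitin ligase cIAP1 (1.41 ± 0.15), and Tnfaip3, which encodes A20, a feedback inhibitor of NF-kB (1.40 ± 0.17). The limma adjusted p of these 5 lay at 0.0012 or below. Tab1, an activator of the kinase TAK1, fell by 0.91 ± 0.16 (adjusted p = 0.00776), and Otulin, a deubiquitinase of linear chains, by 0.67 ± 0.13 (adjusted p = 0.0147). Without spleen 1, spleen 2 or tumor 1 the 16 calls came to 8, 8 and 9, and Otulin was not called without any 1 of these 3 arrays (adjusted p up to 0.0899).

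**Figure D4:**
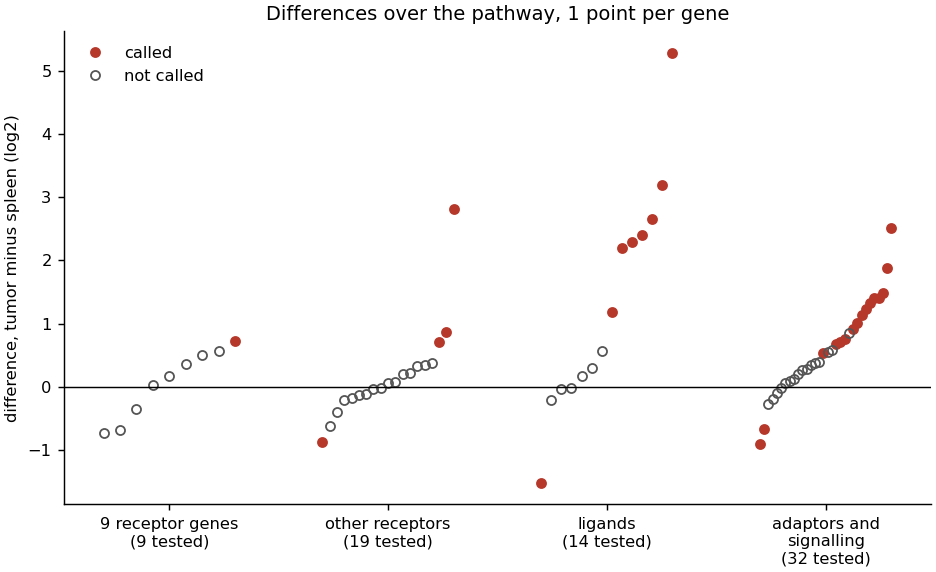
Difference of every tested gene, tumor minus spleen in log2 units, in the 9 receptor genes, the other receptors, the ligands and the adaptor and signalling genes; filled points were called by limma at an adjusted p under 0.05, open ones were not. The 9 receptor genes span -0.74 to 0.73, and the ligand genes -1.52 to 5.29.

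Markers of other cell types that could lie in the sort were read beside these values. Of the 11 monocyte markers 3 were higher (Fcgr1, Cd14 and Ly6c2) and 3 lower (Ccr2, Itgam and Csf1r). None of 5 B cell, 4 plasmacytoid dendritic cell, 6 eosinophil, basophil and mast cell, 4 epithelial and 4 melanocyte markers was called by limma in the fit with group only, where 1 of them, Siglecf (-0.65 ± 0.19), had an unadjusted p under 0.05. With the block Siglecf, a receptor of eosinophils (adjusted p = 0.0014), Kit, the stem cell factor receptor of mast cells (-0.55, adjusted p = 0.00432), and Cdh1, which encodes E-cadherin (-0.38, adjusted p = 0.0159), were called lower in tumor. So were the monocyte marker Adgre1 (-0.57, adjusted p = 0.00257), S100a8 of neutrophils (-0.37, adjusted p = 0.0206), Cd209a of dendritic cells (-0.41, adjusted p = 0.0438) and Col1a1 of stromal cells (-0.47, adjusted p = 0.00649). Of 6 conventional dendritic cell markers Zbtb46 was higher (0.89 ± 0.17) and Itgax lower (-0.85 ± 0.16), and their mean level lay between 7.59 and 7.72 in spleen and between 7.50 and 7.66 in tumor. Of 8 neutrophil markers Mmp8 was lower (-0.68 ± 0.16), and their mean level lay between 6.72 and 7.14 in spleen and between 6.67 and 6.95 in tumor. Of 8 stromal and endothelial markers Kdr was higher (2.88 ± 0.23), while their mean level lay between 6.03 and 6.17 in spleen and between 6.18 and 6.49 in tumor. The part of such cells in the differences of the receptor genes was not tested.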

How the data were processed

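Sorted mouse cells from spleen and tumor (3 arrays each) had been measured on Mouse Gene 2.0 ST arrays, from RNA with an integrity number above 8.5 per the labels' protocols. The authors deposited a linear intensity for every probe set of every array, made with RMA (background correction, normalization and summary over probes) per the submitters' processing notes. Its version and settings, and the genome build, are not stated in the sources used here. Genes were named from GEO's platform annotation: of 41345 probe sets, 23521 carry 1 symbol and were used. A gene's probe set of highest mean was used, and the gene was tested where 3 or more arrays had it above their 25th percentile. Tumor was compared with spleen on log2(intensity + 1) with lmFit and eBayes of limma 3.58.1 (R 4.3.3, group only, two-sided, Benjamini-Hochberg). The procedure was tested on simulated data with independent noise on each array. Those data held neither a shift of number 3 nor any likeness between arrays of equal number. They do not show how the fit behaves where these are present. An exact test of 3 against 3 cannot give a p below 0.1. Deviations from group means correlated across genes at 0.36, 0.44 and 0.71 between spleen and tumor for numbers 1, 2 and 3. Such deviations cancel within a group, so the shift of number 3 enters all 3 values. They therefore cannot tell whether spleen 1 and tumor 1, or spleen 2 and tumor 2, belong together. The block fit is an alternative, given beside each of the 9 receptor genes and each marker whose call it changes. For the other lists it is given as counts. The labels do not say what a number means.

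Named are the 9 receptor genes, their ligands, and other receptors and ligands called at 2-fold or more. Further named are the 5 largest called differences per direction among adaptors and the 3 genes most like the member with the largest rise. Of the cell type markers, the genes behind the sort and those called in either fit are named. Other markers above the median level were called in neither fit, among them Cpa3 (9.91 in spleen and 9.86 in tumor) and Ngp (8.77 and 8.73). Markers called only with the block were named after their values were seen. The receptor genes and all lists were chosen with earlier results of these data known. Alternatives were 2 pseudocounts, 3 normalizations, 2 filters, array weights, a prior with trend and robust settings, averaged probe sets, the block, arrays numbered 1 and 2 only, the pair numbered 3, an adjusted p under 0.01 and each array left out.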

Additional observations from a re-analysis of the deposited data

How the results depend on the processing

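Of the 9 receptor genes, all but Tnfrsf1b kept their sign in all 20 alternatives. Tnfrsf1b turned to -0.00038 with quantile normalization and -0.026 with array weights, and lay between -0.077 and 0.131 over the arrays left out in turn. So did the ligand genes Tnfsf11 (-0.083 to 0.029) and Tnfsf14 (-0.304 to 0.168) change sign with single arrays left out. The count of called receptor genes was 1, and it came to 3 (3 higher) with log2(intensity + 16), 4 (2 higher, 2 lower) with quantile normalization, 3 (2 higher, 1 lower) with median centring, 4 (3 higher, 1 lower) with cyclic loess, 7 with array weights, 7 with the replicate block, 4 with the arrays numbered 1 and 2 only and 0 at an adjusted p under 0.01. It ranged from 0 to 2 with single arrays left out. Tnfrsf12a and Tnfrsf1b were called in none of these. The ligands counted 7 higher and 1 lower with every single array left out.

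The other receptors came to 9 calls with array weights, 8 with the replicate block and 2 at an adjusted p under 0.01, and to 2 to 4 with single arrays left out, in place of 4. The adaptors came to 8 at an adjusted p under 0.01, 24 with array weights, 22 with the replicate block, 22 with cyclic loess and to 8 to 17 with single arrays left out, in place of 16. The count over all genes was 1952, and it came to 3506 with quantile normalization, 3289 with median centring, 3184 with cyclic loess, 7102 with array weights, 5346 with the replicate block, 2936 with the arrays numbered 1 and 2 only and 961 at an adjusted p under 0.01, and to 1011 to 1924 with single arrays left out (1147 without spleen 1, 1031 without spleen 2, 1011 without tumor 1). The cause of these changes was not tested. Near background, where dim genes lie, differences are limited by the signal.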
